A study of Mus musculus with 6 samples.

Results

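The genes described here encode the neurofilament subunits and the main neuronal microtubule-associated proteins: Nefl, Nefm, Nefh, Ina, Prph, Map1b, Map2 and Mapt. All 8 were chosen by name, and every probe set whose only annotated gene was one of them was taken, which gave 18 of the 22690 probe sets on the array. Of these 18 probe sets, 14 had a mean log2 value above 4 over the 6 arrays and were tested, for 7 of the 8 genes. The 4 that were left out were all of those of Prph.

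The tissue was the cochlear nucleus, the brainstem nucleus in which auditory nerve fibres end, from mice at postnatal day 21. Tetrodotoxin, which blocks voltage-gated sodium channels and so silences nerve fibres, had been delivered into the cochlea of 1 ear by osmotic pump for 24 h. The ipsilateral group was the nucleus on the infused side and the contralateral group the nucleus on the opposite side of the treated animals, each with 3 pools of tissue from 10 to 12 mice, measured on 1 Affymetrix array per pool. Both sides carry replicate numbers 1 to 3, but the labels do not say that same-numbered pools came from the same mice, so arrays of 1 number are set side by side only as a description. No group came from untreated mice, so a difference could arise on either side, and strain and sex were not given in the labels.

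Neurofilaments are the intermediate filaments of axons. They are built from a light, a medium and a heavy subunit (Nefl, Nefm and Nefh) together with alpha-internexin (Ina) in the central nervous system, or with peripherin (Prph) in many neurons with peripheral axons, and their amount is linked to axon calibre. Microtubule-associated proteins bind and stabilise microtubules, Map2 mainly in dendrites, tau (Mapt) mainly in axons and Map1b above all in growing neurons. The comparison asks which of these transcripts are regulated in the nucleus when its input is silenced.

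The neurofilament subunits differed little between the sides. Their 6 tested probe sets lay between -0.04 and 0.19 on the log2 scale (ipsilateral minus contralateral), and the 4 tested genes, each by its brightest probe set, had a median difference of 0.02, beside -0.01 over all tested probe sets. The microtubule-associated proteins had lower ipsilateral means for 7 of 8 probe sets, with differences from -0.34 to 0.06 and a median of -0.19 over the 3 genes, but their replicates were far apart. The groups of 3 arrays overlapped for 14 of 14 tested probe sets. None of the 14 had a Benjamini-Hochberg adjusted p under 0.05 (0 of all 15298 tested probe sets did, 0%), and none had an unadjusted limma p under 0.05, a level that 2.38% of all tested probe sets passed. Over the whole table this was 364 probe sets in limma and 423 in a plain equal-variance test. Groups that did not overlap were found for 0 of the 14, beside 6.26% of all tested probe sets (2.82% with the ipsilateral arrays all above and 3.44% with them all below).

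**Figure D1:**
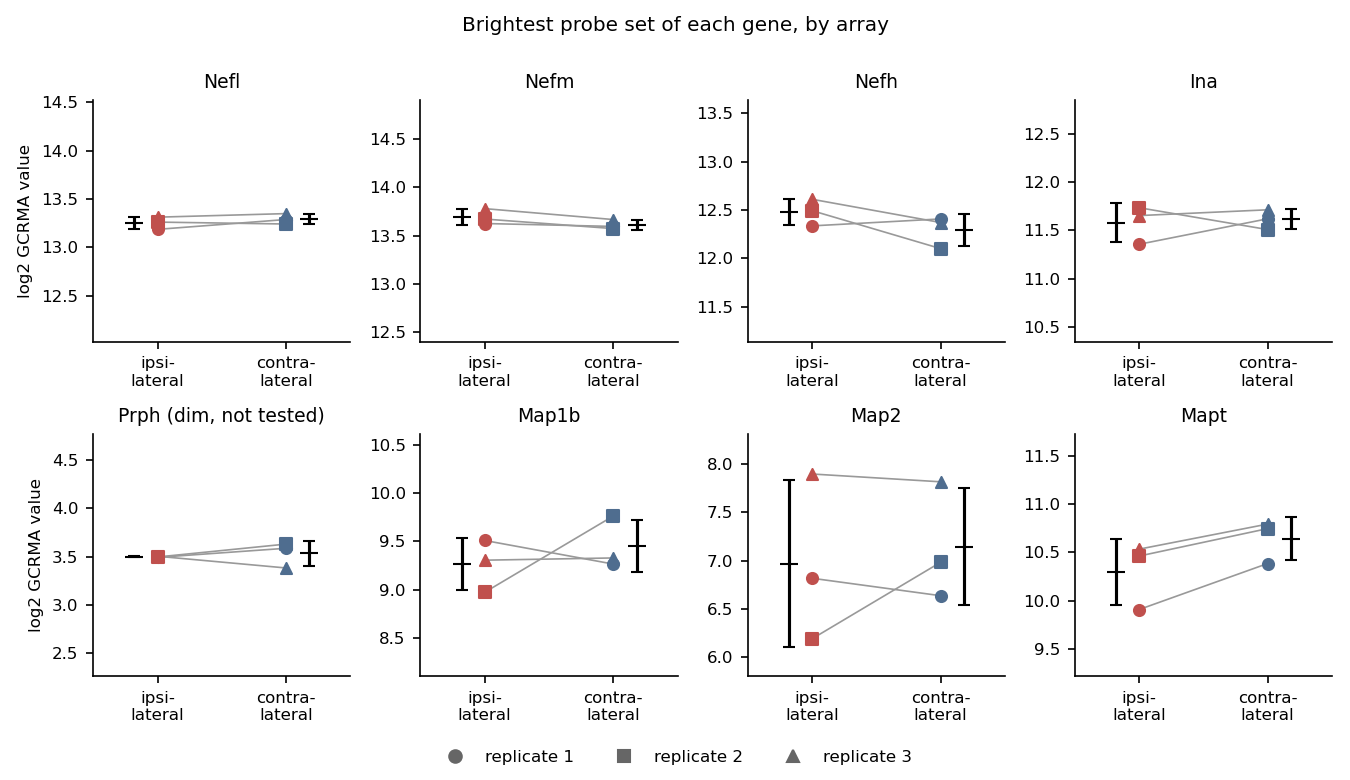
Log2 GCRMA values of the brightest probe set of each of the 8 genes on the 3 ipsilateral (left, red) and 3 contralateral (right, blue) arrays, with grey lines joining the arrays of 1 replicate number and bars for the mean and SD (n = 3 each). Each vertical axis spans the same log2 width but is centred on its own gene. The lines are nearly flat for Nefl and Nefm, cross for Map1b and Map2, and all run lower on the ipsilateral side for Mapt.

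Nefl encodes the light subunit, on which the assembly of the filament depends. Its 1 probe set measured 13.18, 13.26 and 13.31 on ipsilateral arrays 1, 2 and 3, and 13.29, 13.24 and 13.35 on contralateral arrays 1, 2 and 3 (log2). The 6 values lay within 0.16 of each other and the sides overlapped almost fully, with ipsilateral replicate 1 the lowest. The mean was 13.25 ± 0.06 ipsilaterally and 13.29 ± 0.05 contralaterally (SD, n = 3 each), a difference of -0.04 (SE 0.09, limma adjusted p = 1.00). The 95% interval of that difference in limma corresponded to an ipsilateral over contralateral ratio between 0.842 and 1.12.

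Nefm, the medium subunit, carries a long tail that extends from the filament. It measured 13.63, 13.67 and 13.78 on the ipsilateral arrays and 13.60, 13.57 and 13.67 on the contralateral arrays. Between arrays of the same replicate number the ipsilateral value was the higher one, by 0.03, 0.10 and 0.11, although the groups overlapped. A higher ipsilateral value for 3 of 3 replicate numbers was found for 1 of the 14 tested probe sets, beside 10.7% of all tested probe sets. The difference was 0.08 (SE 0.09, limma adjusted p = 1.00), with a ratio interval from 0.912 to 1.23. RefSeq lists Nefl and Nefm as direct neighbours among the protein-coding genes of chromosome 14.

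Nefh, the heavy subunit, is the most heavily phosphorylated of the triplet and appears latest in development. Its values were 12.34, 12.50 and 12.61 on the ipsilateral arrays and 12.41, 12.10 and 12.37 on the contralateral arrays. Contralateral replicate 2 was the lowest of the 6, and ipsilateral replicate 1 lay below contralateral replicates 1 and 3. With a difference of 0.19 (SE 0.12, limma unadjusted p = 0.178), Nefh had the largest positive difference among the 14 probe sets, and its ratio interval ran from 0.927 to 1.40. In replicate 1 the ipsilateral value was lower by 0.07, and in replicates 2 and 3 it was higher by 0.39 and 0.24. Without contralateral replicate 2 the difference was 0.09, and without ipsilateral replicate 1 it was 0.26.

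Ina encodes alpha-internexin, the subunit that joins the triplet in central axons. Its 3 probe sets gave differences of -0.03, 0.08 and 0.00. The brightest measured 11.36, 11.73 and 11.65 on the ipsilateral arrays and 11.62, 11.51 and 11.71 on the contralateral arrays. In all 3 probe sets the ipsilateral side was lower in replicate 1, by 0.26, 0.32 and 0.32, and higher in replicate 2, by 0.23, 0.47 and 0.30. These replicate numbers thus went opposite ways, and the ratio interval of the brightest ran from 0.793 to 1.20.

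Prph encodes peripherin, the intermediate filament of many sensory, autonomic and motor neurons. Its 4 probe sets lay between 2.34 and 3.50 on the ipsilateral arrays and between 2.27 and 3.63 on the contralateral arrays, all below the minimum mean of 4. Their differences ran from -0.05 to 0.02, and the groups overlapped for all 4. GCRMA values this low carry little information on level, so a change of Prph cannot be judged from these arrays.

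The RefSeq promoter table (GRCm38.p6) holds 4 of the 8 genes (Ina, Prph, Map1b and Map2). Ina, Map1b and Map2 were measured above the minimum mean, and Prph was not. The 100 bases before the annotated start are shown 5′ to 3′ on the gene's strand. They cover chr19:47014581-47014680 (+ strand) for Ina, chr15:99055074-99055173 (+) for Prph, chr13:99516603-99516702 (-) for Map1b and chr1:66175229-66175328 (+) for Map2, and capitals mark TATAAA, the core of the TATA box.
Ina: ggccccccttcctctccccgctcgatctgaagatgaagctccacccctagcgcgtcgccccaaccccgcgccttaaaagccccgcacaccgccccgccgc
Prph: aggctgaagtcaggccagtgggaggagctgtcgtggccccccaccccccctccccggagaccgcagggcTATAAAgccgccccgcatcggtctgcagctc
Map1b: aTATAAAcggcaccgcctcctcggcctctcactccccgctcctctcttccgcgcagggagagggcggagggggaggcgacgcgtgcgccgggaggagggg
Map2: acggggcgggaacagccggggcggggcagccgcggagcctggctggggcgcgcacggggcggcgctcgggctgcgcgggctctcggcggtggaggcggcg
TATAAA was searched on both strands in the 300 bases from 250 before to 50 after each start and was found in 2 of the 4 promoters, at -31 in Prph and at -99 in Map1b, beside 13.6% of 32851 promoters in the table. TGACG, the core of the cyclic AMP response element bound by the activity-regulated factor CREB, was found in 0 of the 4 and in 20.8% of all promoters, and the full palindrome TGACGTCA, which contains it, in 0 of the 4 and in 1.79%. GGGCGG, the GC box, was found in 4 of the 4 and in 35.7% of all promoters. These matches describe the letters of the windows only.

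Mapt encodes tau and had the largest difference of the 8 genes. Its brightest probe set measured 9.91, 10.46 and 10.53 on the ipsilateral arrays and 10.38, 10.75 and 10.79 on the contralateral arrays. Every ipsilateral array was below the contralateral array of the same number, by 0.48, 0.28 and 0.26, yet the groups overlapped because contralateral replicate 1 lay under ipsilateral replicates 2 and 3. A lower ipsilateral value for 3 of 3 replicate numbers was found for 1 of the 14 tested probe sets, beside 13% of all tested probe sets. The mean was 10.30 ± 0.34 ipsilaterally and 10.64 ± 0.22 contralaterally (SD, n = 3 each), a difference of -0.34 (SE 0.20, limma unadjusted p = 0.128, adjusted p = 1.00) with a ratio interval from 0.572 to 1.09. Without ipsilateral replicate 1, the lowest array, the difference was -0.14.

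The other 2 probe sets of Mapt did not show this difference. One (probe set 2 by brightness) measured 7.84, 8.33 and 8.35 on the ipsilateral arrays and 8.24, 7.92 and 8.38 on the contralateral arrays, a difference of -0.01. The other (probe set 3) measured 5.94, 6.34 and 6.79 on the ipsilateral arrays and 6.35, 6.22 and 6.66 on the contralateral arrays, a difference of -0.05. Ipsilateral replicate 1 was the lowest array for all 3 probe sets. In replicate 2 the brightest probe set was lower on the ipsilateral side, and both others were higher, by 0.41 and 0.12. The suffix _a_at marks a probe set designed to match several transcripts of a gene, and which transcripts each set matches was not tested.

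Map1b, which encodes a microtubule-associated protein of growing axons, had 3 probe sets that moved in different ways over the arrays. The brightest measured 9.51, 8.97 and 9.30 on the ipsilateral arrays and 9.26, 9.76 and 9.33 on the contralateral arrays, a difference of -0.19 (SE 0.19, limma adjusted p = 1.00). Its lowest and highest values were the 2 arrays of replicate 2. The dimmest was lowest and highest on the same arrays, at 5.50 on ipsilateral array 2 and 6.88 on contralateral array 2. Probe set 2 was instead highest on ipsilateral array 2, at 9.66, and lowest on ipsilateral array 3, at 8.17. Its difference was 0.06, with a ratio interval from 0.554 to 1.96, so its ratio was only loosely bounded.

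Map2, which encodes the main microtubule-associated protein of dendrites, had the widest spread. Its brighter probe set measured 6.82, 6.19 and 7.90 on the ipsilateral arrays and 6.64, 6.98 and 7.82 on the contralateral arrays. Both arrays of replicate 3 stood at the top and ipsilateral replicate 2 at the bottom, so the replicates differed by more than the sides. The mean was 6.97 ± 0.86 ipsilaterally and 7.15 ± 0.61 contralaterally (SD, n = 3 each), a difference of -0.18 with a ratio interval from 0.408 to 1.92. The other probe set also had its lowest value, 5.57, on ipsilateral array 2 and gave -0.18 as well. Without ipsilateral replicate 2 the 2 differences were 0.21 and 0.13. The median of Map1b, Map2 and Mapt likewise turned to 0.11 without replicate 2 of both sides.

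**Figure D2:**
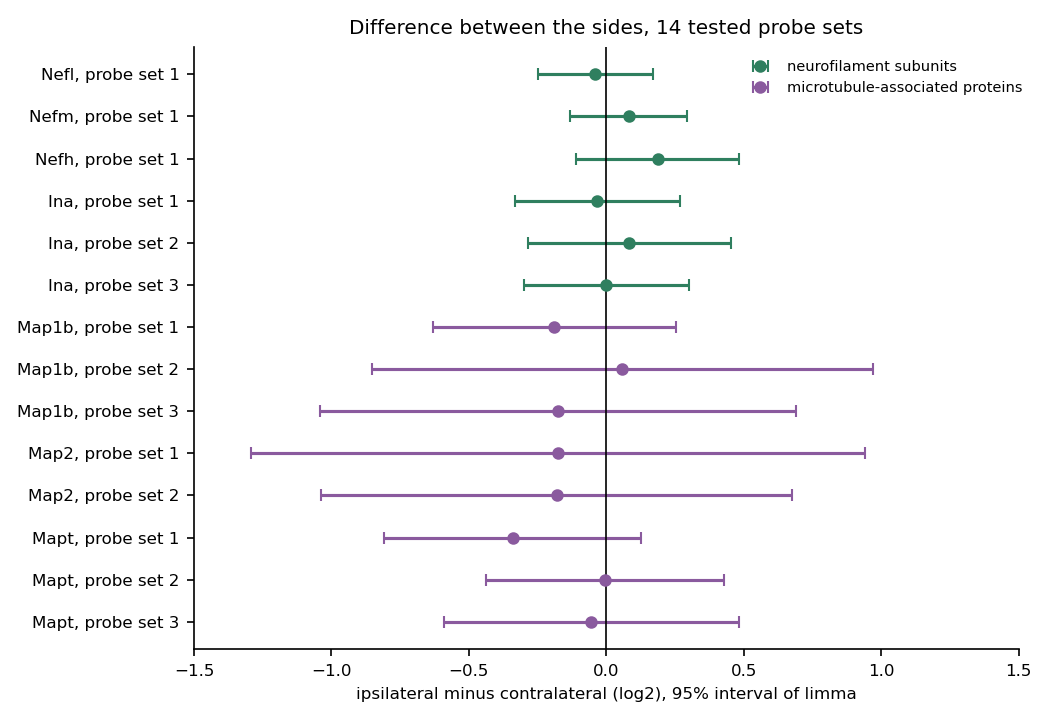
Ipsilateral minus contralateral difference (log2, horizontal axis) of the 14 tested probe sets with the 95% interval of limma, neurofilament subunits in green and microtubule-associated proteins in purple, and probe sets numbered within a gene from brightest to dimmest. All 14 intervals contain 0, and they are narrowest for Nefl and Nefm and widest for Map2.

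The probe sets differed in how closely their replicates agreed. The residual SD over the replicates was 0.06 for Nefl and 0.07 for Nefm, beside a median of 0.16 over all tested probe sets, of which 8.03% had a smaller one than Nefm. The 8 probe sets of the microtubule-associated proteins had residual SDs from 0.26 to 0.75, between the 78.4th and the 99.4th percentile. The 95% interval of limma had a half-width of 0.21 for Nefl and 1.12 for the brighter probe set of Map2, so the data bound Nefl more tightly than Map2. Messenger RNA was measured in bulk tissue, so fewer neurons of a type and less RNA per neuron cannot be told apart.

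Ipsilateral replicate 1 had the lowest value for 6 of the 14 tested probe sets and the highest for 0, beside 16.4% and 13.2% of all tested probe sets. These 6 were Nefl, 2 of the 3 probe sets of Ina and all 3 of Mapt. That array also stood apart in markers of the choroid plexus, the secretory tissue beside the nucleus. The mean of 10 such markers was 8.97, 4.93 and 5.17 on ipsilateral arrays 1, 2 and 3, and 7.99, 7.71 and 7.24 on contralateral arrays 1, 2 and 3, and 10 of 10 had a lower ipsilateral mean. With that mean as a covariate in limma, the difference of the brightest Mapt probe set was -0.54 (unadjusted p = 0.00779, adjusted p = 1.00), that of Nefl was -0.07 and that of Nefh was 0.12. The covariate itself differed between the sides, so over 6 arrays it cannot be fully told apart from side. Without the covariate the other 2 Mapt probe sets differed by -0.01 and -0.05, and with it both were lower ipsilaterally by more than that. Without ipsilateral arrays 2 and 3, which were low in the choroid plexus markers, the brightest Mapt probe set differed by -0.73 and Nefl by -0.11. The other 2 Mapt probe sets were also lower in that setting, at 7.84 against a contralateral mean of 8.18 and at 5.94 against 6.41. That setting was chosen after seeing the data and leaves 1 ipsilateral array.

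Other cell type markers were measured on the same arrays. The mean of 13 pan-neuronal markers lay between 9.69 and 10.09 on the ipsilateral arrays and between 9.64 and 9.92 on the contralateral arrays, with 9 of 13 higher and 4 lower ipsilaterally. Cerebellar granule and Purkinje cell markers averaged 9.17 to 9.64 on the ipsilateral and 9.29 to 9.62 on the contralateral arrays (5 of 11 higher). Their differences ran from -0.48 to 0.14. The groups did not overlap for 1 of these 11, Calb1 (-0.48), beside 3.44% of all tested probe sets in that direction. Calb1 was also the 1 marker of this list with an unadjusted limma p under 0.05, and it did not pass the adjusted threshold. Car8 (-0.31), Pcp2 (-0.30) and Slc1a6 (-0.25) were lower as well, with overlapping groups. Oligodendrocyte and myelin markers averaged 12.86 to 12.92 on the ipsilateral and 12.66 to 12.92 on the contralateral arrays (8 of 8 higher). The groups did not overlap for 1 of these 8, Mbp, beside 2.82% of all tested probe sets in that direction. Astrocyte markers averaged 10.36 to 10.38 on the ipsilateral and 10.18 to 10.39 on the contralateral arrays (8 of 10 higher). Of the Schwann cell markers only Pmp22 and Sox10 were tested, and both were higher by less than 0.10. Microglia and macrophage markers averaged 7.16 to 7.25 on the ipsilateral and 6.95 to 7.15 on the contralateral arrays (9 of 10 higher, median 0.17). The sides barely missed each other, at 7.156 for the lowest ipsilateral and 7.151 for the highest contralateral array. Of these 10, 3 were higher at an unadjusted limma p under 0.05 (C1qb, Cd68 and Aif1, adjusted p = 1.00 each), beside 1.16% of all tested probe sets. Groups did not overlap for 4, all higher ipsilaterally, beside 2.82% of all tested probe sets in that direction. Vascular endothelial markers averaged 6.43 to 6.68 on the ipsilateral and 6.61 to 6.65 on the contralateral arrays (6 of 9 lower, median -0.10). The part of these cell types in the members' values was not tested.

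**Figure D3:**
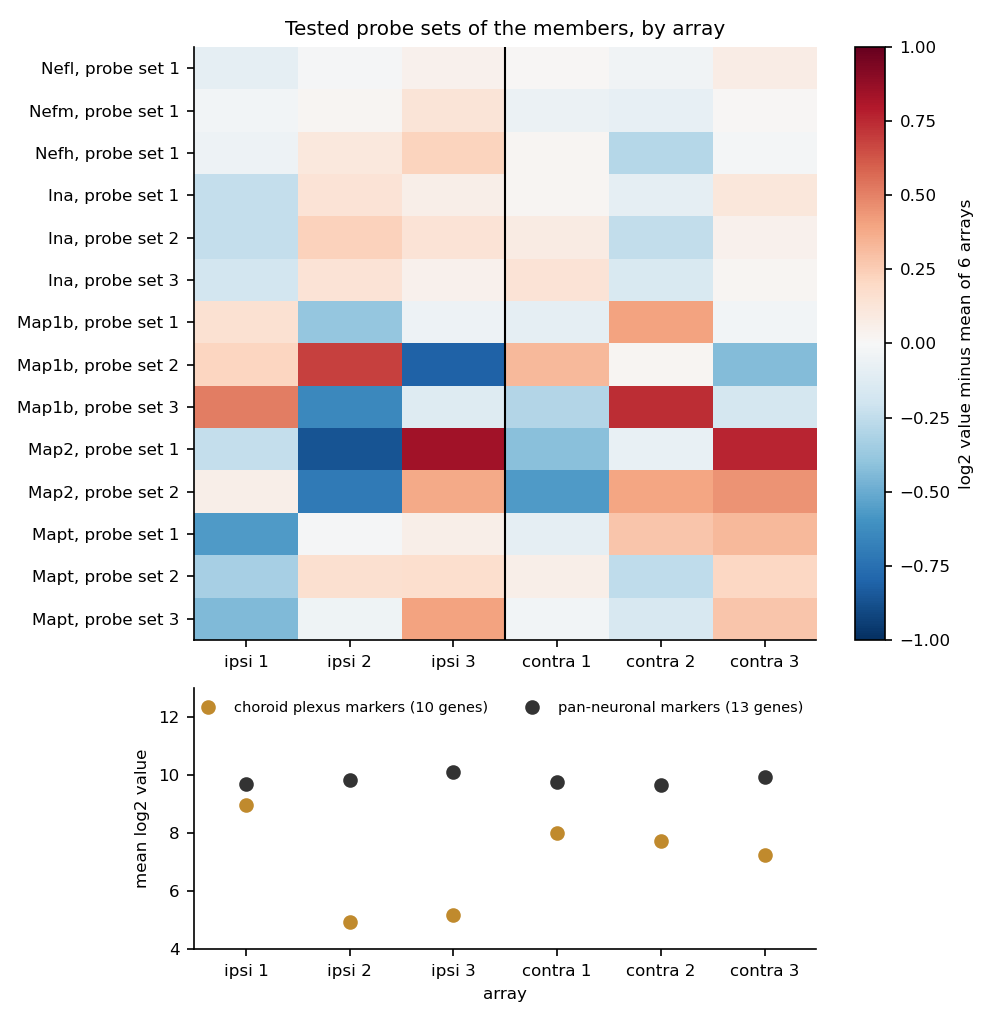
Upper panel, the 14 tested probe sets of the members as log2 value minus the mean of the 6 arrays (colour scale, red higher, blue lower), 3 ipsilateral arrays left of the line and 3 contralateral arrays right of it. Lower panel, mean log2 value of 10 choroid plexus markers and 13 pan-neuronal markers on the same arrays. Ina and Mapt are low on ipsilateral array 1, which had the highest choroid plexus mean (8.97), and the strongest colours, in Map1b and Map2, do not follow the side.

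The wider cytoskeleton was read from 7 lists with 74 tested genes, of which 42 had a higher and 32 a lower ipsilateral mean. None passed an adjusted p of 0.05 in limma, 2 had a lower ipsilateral level at an unadjusted p under 0.05 (2.70% of the 74, beside 1.22% of all tested probe sets) and 0 a higher one (beside 1.16%). Tubulins, the building blocks of microtubules, were lower for 8 of 11 genes with a median of -0.07. Tubb2a, a beta-tubulin abundant in brain, measured 11.80, 11.91 and 11.89 on the ipsilateral arrays and 12.04, 12.11 and 12.13 on the contralateral arrays, so the sides did not overlap. It differed by -0.23 (SE 0.09, limma unadjusted p = 0.0333, adjusted p = 1.00), but a second, dimmer probe set of Tubb2a differed by 0.22, also without overlap but higher ipsilaterally, and the first carries the suffix _s_at of sets that can match related genes. Tuba4a, an alpha-tubulin, measured 12.57, 12.65 and 12.56 ipsilaterally and 12.75, 12.80 and 12.70 contralaterally, also without overlap, a difference of -0.16 (limma adjusted p = 1.00). Its next probe set gave -0.13 and a dim one -0.01. In these lists 3 of 74 genes had groups that did not overlap, all lower on the ipsilateral side, beside 3.44% of all tested probe sets in that direction.

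The third of them was Ppp2r2b, in the list of kinases and phosphatases that act on neurofilaments and tau (7 of 13 higher, median 0.01). Ppp2r2b encodes a brain-enriched regulatory subunit of protein phosphatase 2A, an enzyme that dephosphorylates tau. It measured 8.60, 8.63 and 8.69 on the ipsilateral arrays and 8.92 on each of the contralateral arrays. The difference was -0.28 (SE 0.08, limma unadjusted p = 0.0114, adjusted p = 1.00). Cdk5r2, an activator of the tau and neurofilament kinase Cdk5, differed by -0.57 with an SD of 0.64 ipsilaterally and 0.54 contralaterally, within the spread of its replicates.

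The remaining lists had medians close to 0. Other intermediate filament proteins were higher for 4 of 6 genes (median 0.04), with the nuclear lamin gene Lmna at 0.34 and vimentin (Vim) at 0.09. Other structural microtubule-associated proteins were higher for 8 of 15 (median 0.03), with the plus-end binding proteins Mapre1 at -0.14 and Mapre3 at 0.14. Stathmins, which bind free tubulin, and microtubule severing proteins were higher for 4 of 7 (median 0.02), with Fign at -0.28 and Stmn4 at 0.08. Axonal transport motors were higher for 8 of 14 (median 0.05), with the kinesins Kif1b at 0.15 and Kif1a at 0.10. Spectrins, ankyrins and linkers were higher for 8 of 8, by 0.01 to 0.15 (median 0.05), with Macf1 at 0.15 and Sptbn1 at 0.11. Other tested probe sets of Lmna differed by -0.03 and 0.02. Those of Sptbn1 differed by 0.35, 0.29 and 0.11, with SEs of 0.40, 0.35 and 0.20. Of the other 6 of Kif1b, 5 differed by 0.04 to 0.11 and the dimmest by -0.41 (SE 0.22). No tested probe set of these 10 named genes had an unadjusted limma p under 0.05.

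**Figure D4:**
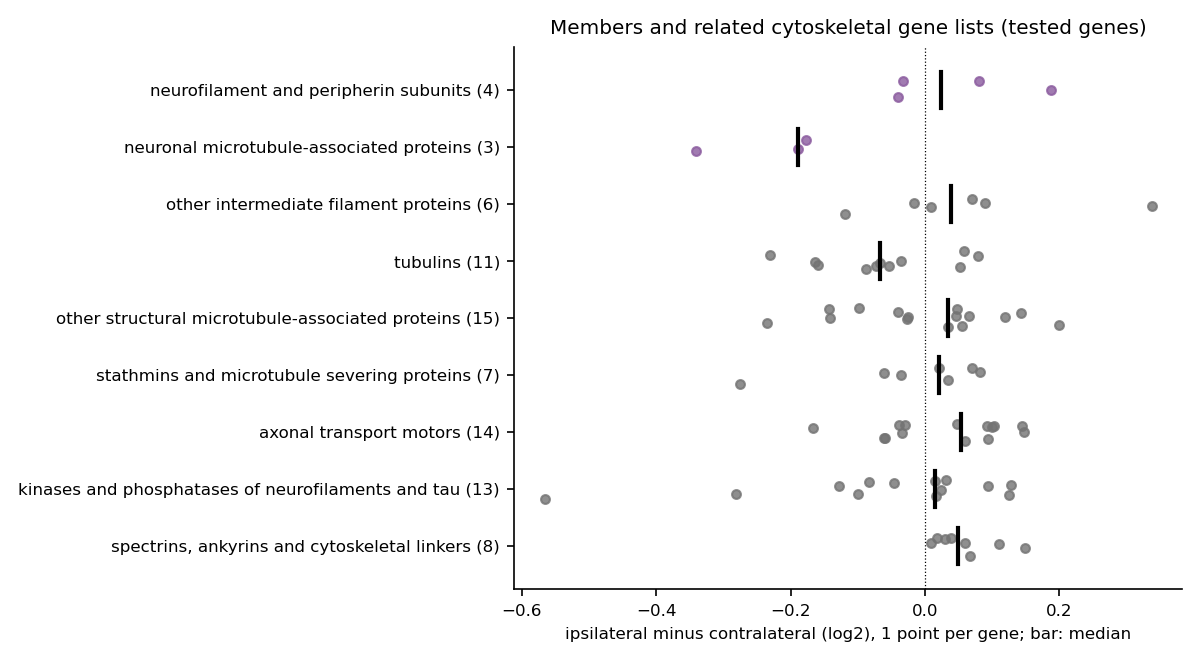
Ipsilateral minus contralateral difference (log2) of each tested gene, by its brightest tested probe set, for the 2 groups of members (purple) and 7 related cytoskeletal lists (grey), with the number of tested genes in brackets and a bar at the median. Medians lie between -0.19 for the microtubule-associated members and 0.05 for the transport motors, and points of every list but the microtubule-associated members and the spectrins lie on both sides of 0.

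The profile of the triplet over the arrays, taken as the mean of Nefl, Nefm and Nefh after centring each on its own mean, was -0.05, 0.04 and 0.13 on the ipsilateral arrays and -0.01, -0.13 and 0.02 on the contralateral arrays. It was highest on ipsilateral replicate 3 and lowest on contralateral replicate 2. The probe sets nearest to it, by mean absolute difference over the 6 arrays, belonged to Zmynd11, a reader of histone methylation, Arhgap39, Rad21, a cohesin subunit, Acvr1b, an activin receptor, and Rhoa, a GTPase that controls actin. Their distances ran from 0.01 to 0.02, among 11227 named probe sets that ranged at least as widely as the profile. Other probe sets of Zmynd11 differed by 0.33 and -0.01 between the sides, of Rad21 by 0.12 and -0.03 and of Rhoa by -0.04, beside 0.10, 0.11 and 0.11 for the sets named. The 5 genes are given as a description only.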

How the data were processed

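The table the authors deposited gives log2 expression values per probe set for 6 arrays, 1 per sample. Per the submitters' processing notes they were made with GCRMA, which uses probe sequence to correct background and then normalizes and summarises probes. No version or setting was given in the sources used here, and that the scale is log2 was inferred from the range of the values. GCRMA pulls dim probe sets toward a floor, and normalization hides shifts shared by most genes.

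Sides and replicate numbers are those of the labels' descriptions. The repository's platform annotation gave 1 gene symbol for 20393 of 22690 probe sets, and 18 of 18 member probe sets matched RefSeq by Entrez identifier. Control probe sets (64) and those with a mean at or below 4 (7328) were left out. The difference, ipsilateral minus contralateral, was fitted over 15298 probe sets with lmFit and eBayes of limma 3.58.1 (R 4.3.3), without the replicate number as a block, and p-values were adjusted by the Benjamini-Hochberg method (threshold 0.05). Intervals are limma's 95% intervals for single probe sets. The brightest tested probe set stood for a gene in lists. Array medians ranged from 5.86 to 5.91. Arrays give no depth, so their number limits the precision, and with 3 arrays against 3 the smallest exact two-sided permutation p is 0.1.

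The labels do not state that same-numbered samples came from the same mice, and the fit treats them as unpaired. The pools are described as biological replicates, and p-values measure only the spread between them. Members and lists were chosen with earlier results of these data known. The text names all 8 members, the 2 genes of smallest unadjusted p in each related list and the 5 genes nearest to the triplet's profile. The fit was tested on simulated data with independent noise and added differences larger than any of the members. That test does not cover differences of the size reported for the members.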

Additional observations from a re-analysis of the deposited data

How the results depend on the processing

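Fits were repeated under 22 alternatives: the replicate block, other filters, normalizations, variance models and tests, other choices of probe set, a threshold of 0.1, the choroid plexus covariate, and leaving out 1 array or both of 1 number. Of 308 values of the 14 tested member probe sets, 0 passed the threshold and 43 had the opposite sign to the reported one. Of 413 values of the other named genes 0 passed and 5 had the opposite sign. Many of these signs could not turn. The replicate block, the filters, the trend and robust variance model, the plain test and the threshold of 0.1 left each difference as it was. Leaving out _x_at and _s_at probe sets did so too for the sets that remained. The mean of a gene's probe sets gave the same value for each of them. The counts therefore overstate how stable the signs were. The replicate block changed no call at the adjusted threshold. With it the unadjusted limma p of the brightest Mapt probe set was 0.0150 and that of Lmna 0.0198 (adjusted p = 0.991 each), in place of 0.128 and 0.136. The numbers were not taken as a pairing: deviations of same-numbered arrays from their group means correlated at 0.09, 0.04 and 0.57 over tested probe sets, and ipsilateral replicates 1 and 2 correlated better with contralateral replicates 2 (0.19) and 1 (0.30). The count over all probe sets, 0 as reported, was 5 when ipsilateral replicate 1 was left out and 2 when both arrays of replicate 1 were, with no member among them. Probe sets at an unadjusted p under 0.05 in limma numbered 364, against 569 with the replicate block, 233 with a minimum mean of 6 (10987 tested) and 571 without ipsilateral replicates 2 and 3, a setting chosen after seeing the data. They ranged from 300 to 524 when 1 array or number was left out. The median of the neurofilament subunits then ranged from -0.02 to 0.10 and that of the microtubule-associated members from -0.46 to 0.11.

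Probe sets are numbered within a gene from brightest to dimmest. With the mean of a gene's probe sets, Ina was 0.017 in place of -0.03 and Map1b -0.10 in place of the 0.06 of its probe set 2. With the choroid plexus covariate Ina was -0.052 (probe set 2) and -0.085 (probe set 3), and Map1b 0.12 (probe set 3). Array weights gave -0.044 for Ina probe set 3, and median centring 0.0012 for Mapt probe set 2. Without ipsilateral replicates 2 and 3 Ina was -0.20 and -0.18 (probe sets 2 and 3), Map1b 0.057 and 0.42 (probe sets 1 and 3), Mapre3 -0.0094, Sptbn1 -0.0076 and Arhgap39 -0.018. With 1 array or number left out, the 3 probe sets of Ina ranged from -0.16 to 0.083, from -0.11 to 0.28 and from -0.15 to 0.16. Those of Map1b ranged from -0.41 to 0.11, from -0.27 to 0.48 and from -0.67 to 0.43, and those of Map2 from -0.64 to 0.21 and from -0.59 to 0.28. Mapt probe sets 2 and 3 ranged from -0.21 to 0.19 and from -0.27 to 0.15, and Fign from -0.67 to 0.17. Nefl (-0.07 to -0.01), Nefm (0.04 to 0.11), Nefh (0.08 to 0.32) and Mapt probe set 1 (-0.47 to -0.14) kept their sign in these fits. The cause of the turns was not tested. The median difference over all tested probe sets was -0.0055 as reported, 0.0009 with quantile normalization and 0.0019 with median centring. Array medians ranged only from 5.86 to 5.91, so these 2 settings could move it little.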
